A study of Mus musculus with 6 samples.

Results

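Accessible chromatin was described around 10 genes of TGF-beta and PDGF signalling in the embryonic mouse face. The genes were the ligands Tgfb1, Tgfb2 and Tgfb3, the TGF-beta receptors Tgfbr1, Tgfbr2 and Tgfbr3, the PDGF ligands Pdgfa and Pdgfc, and the PDGF receptors Pdgfra and Pdgfrb. Peaks sharing 1 bp or more, whichever library they came from, were joined into 1 region, which was given to one of these genes when its strongest summit lay within 100 kb of that gene's start site and no start site of another protein-coding gene was nearer. This gave 310 regions, of 245066 regions within 100 kb of a protein-coding start and 382006 regions in all. The farthest of the 310 lay 97.0 kb from its start site, at Tgfbr3, and was called in 1 library, and the nearest region beyond the limit lay 100.5 kb from Tgfb3 and was called in 6 libraries. The method was bulk ATAC-seq (the Tn5 transposase cuts and tags DNA that is accessible), and the source was fresh face tissue of wild-type E11.5 embryos, with the cell type given as mixed. There were 6 libraries: 2 labelled maxillary process (most of the future upper jaw), 2 labelled mandibular process (the future lower jaw) and 2 labelled nose. No allele, transgene or treatment was given for any of them, and nothing in the labels tells whether 2 libraries of the same tissue came from separate embryos, so that every p-value measures only the spread between these libraries.

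TGF-beta ligands are secreted in a latent form bound to matrix, and once released they join a type II and a type I receptor kinase, which passes the signal to SMAD proteins that enter the nucleus. PDGF dimers bring together PDGF receptors, which are tyrosine kinases at the cell surface. In the mouse face, TGF-beta signalling is known for its part in growth and fusion of the palate, and PDGF signalling for the growth and survival of neural crest derived mesenchyme in the midface.

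For all 4 jaw libraries the name of the list abbreviates the opposite jaw to the one in the sample's label, and the libraries are called here by their labels. Near Hand2, a transcription factor of the lower jaw, 4 regions were present with the maxillary process label in both replicates and with the mandibular process label in none, against 0 the other way, whereas near Alx1, a factor of the upper and middle face, the counts were 0 and 7. Which jaw a result below belongs to, between the jaws and against nose, may thus be the labelled one or the other, which cannot be told apart here, and only the nose libraries themselves are free of this doubt. The lists differed in length (219779 to 299731 lines) and in their lowest −log10 q (2.55 for replicate 2 of maxillary process, 1.62 for replicate 1 of mandibular process and 1.3 for the other 4), and no depth in reads is known. A region absent from a list was therefore not detected at that list's own limit, and a lower share of accessible cells cannot be told apart from weaker accessibility in each cell. All of 4 facial mesenchyme markers had a start-site region, meaning one within 1 kb of a start site, in every library, as did 4 of 4 pericyte and smooth muscle markers, 3 of 4 epithelial markers and 2 of 4 endothelial markers. So did 4 of 5 lower jaw, 4 of 4 upper jaw and frontonasal, 4 of 5 nasal, 3 of 4 neuronal and 2 of 3 muscle markers. Over all protein-coding genes the share was 61.3%. None of 4 blood markers did. Among these, Gata1 had a start-site region in 4 libraries, Ptprc in 2, Klf1 in 1, and Spi1, which defines myeloid cells, in none.

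The windows shown here come from regions on which the differences between labels turn: 4 of the best-ranked regions specific to a label, and 2 of the 3 regions whose peak strength differed between labels. Each is 201 bp of GRCm38 (mm10) on the + strand, centred on the strongest summit, in lower case, with capitals for every match to one of 10 short motifs on either strand.
Tgfbr2 upstream, only nose, chr9:116212769-116212969: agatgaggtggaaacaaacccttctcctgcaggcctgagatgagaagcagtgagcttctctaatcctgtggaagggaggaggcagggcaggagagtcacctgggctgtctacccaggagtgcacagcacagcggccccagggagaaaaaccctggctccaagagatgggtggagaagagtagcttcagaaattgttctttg
Pdgfc intron, only maxillary process, chr3:81083568-81083768: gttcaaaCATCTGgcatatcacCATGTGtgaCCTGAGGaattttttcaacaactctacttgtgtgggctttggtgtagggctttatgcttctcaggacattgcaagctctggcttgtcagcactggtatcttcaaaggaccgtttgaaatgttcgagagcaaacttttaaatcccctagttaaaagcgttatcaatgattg
Pdgfc upstream, only nose, chr3:81021969-81022169: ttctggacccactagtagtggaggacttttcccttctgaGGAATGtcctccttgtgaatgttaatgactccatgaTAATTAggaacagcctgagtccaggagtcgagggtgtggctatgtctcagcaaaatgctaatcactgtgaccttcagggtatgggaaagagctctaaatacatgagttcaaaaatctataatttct
Pdgfc nearer upstream, only nose, chr3:81028647-81028847: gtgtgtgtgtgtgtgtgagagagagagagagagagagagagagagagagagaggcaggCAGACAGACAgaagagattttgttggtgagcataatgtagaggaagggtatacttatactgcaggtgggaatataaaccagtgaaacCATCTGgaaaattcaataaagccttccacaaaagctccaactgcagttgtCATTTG
Tgfb3 downstream, all libraries, chr12:86000831-86001031: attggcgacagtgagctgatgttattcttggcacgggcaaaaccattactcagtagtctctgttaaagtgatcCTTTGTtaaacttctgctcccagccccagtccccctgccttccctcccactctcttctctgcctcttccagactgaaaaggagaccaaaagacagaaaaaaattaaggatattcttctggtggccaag
Tgfbr3 intron, all libraries, chr5:107282933-107283133: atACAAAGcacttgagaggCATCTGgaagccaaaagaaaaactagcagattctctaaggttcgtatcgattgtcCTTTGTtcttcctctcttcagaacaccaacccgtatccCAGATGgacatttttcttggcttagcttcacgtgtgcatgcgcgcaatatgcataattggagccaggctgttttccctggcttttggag
The maxillary process window of Pdgfc held CATCTG and CATGTG, which match the TWIST-type E-box letters CATNTG, and CCTGAGG, the TFAP2 letters. A window can run past the edge of its region, and this CATCTG lay just before the start of the called region. The farther nose window of Pdgfc held GGAATG (TEAD) and TAATTA (homeodomain), and the nearer one opened with a simple GT and GA repeat that ran into overlapping copies of CAGACA, the SMAD box. CTTTGT in the Tgfb3 and Tgfbr3 windows is the reverse strand of ACAAAG, which was searched together with ACAATG as the SOX motif, and CAGATG in the Tgfbr3 window is the reverse strand of an E-box. The Tgfbr2 window held no match to the 10 motifs. Such short matches are common: CATNTG stood in 45.5% of all regions, the SOX letters in 25.4%, CAGACA in 20.3%, GGAATG in 13.9%, CCTGAGG in 5.40% and TAATTA in 5.11%. They describe the letters and mark no site of binding.

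Each library called between 138 and 167 of the 310 regions. Maxillary process libraries called 138 and 153, mandibular process libraries 167 and 144, and nose libraries 152 and 154. The maxillary process average of 145.5 ± 10.6 stood beside 155.5 ± 16.3 for mandibular process and 153.0 ± 1.41 for nose (SD, n = 2 each), and the counts overlapped between every pair of labels. An exact two-sided permutation test over the libraries gave p = 0.667 for maxillary process against mandibular process, 0.667 for maxillary process against nose and 1 for mandibular process against nose, and 2 libraries against 2 cannot go below 0.333. As a share of all regions each library called near genes, the 10 genes held 0.142% and 0.130% in maxillary process, 0.132% and 0.121% in mandibular process, and 0.131% and 0.123% in nose.

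**Figure D1:**
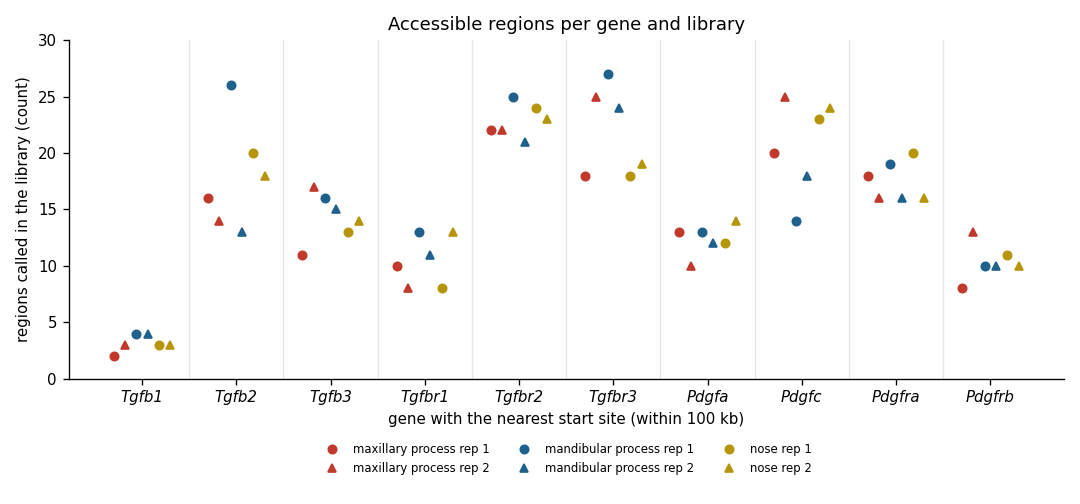
Number of accessible regions called near each of the 10 genes (vertical axis, count) in each of the 6 libraries, coloured by label, with circles for replicate 1 and triangles for replicate 2. Pdgfc had its lowest counts in the libraries labelled mandibular process (14 and 18), and the highest count of Tgfb2 (26) stood in 1 mandibular process library only.

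Of the 310 regions, 69 (22.3%) were called in all 6 libraries, against 21.7% of all regions near genes, and 124 (40.0%) were called in 1 library only, against 41.6%. Regions specific to a label, meaning present in its 2 libraries and missing from the remaining 4, were 8 for maxillary process (2.58%, against 1.76% of all regions near genes), 7 for mandibular process (2.26%, against 2.54%) and 9 for nose (2.90%, against 2.73%). The mandibular process and nose shares lay near those of the genome. That of maxillary process was higher, but it rested on 8 regions and was not tested. The 10 genes as a set were thus not taken to be set apart by regions of 1 label. Between the jaw labels, 14 regions were called in both maxillary process and neither mandibular process library (4.52%, background 3.26%) and 16 the other way (5.16%, background 5.0%). Against nose, maxillary process had 13 such regions (4.19%, background 3.50%) and nose had 16 (5.16%, background 5.15%), while mandibular process had 16 (5.16%, background 4.75%) and nose had 14 (4.52%, background 4.61%).

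The regions of 1 label were weak ones. The 24 regions had a median −log10 q of 2.66 (range 1.40 to 12.1), and the 69 regions called in all libraries had a median of 8.70 (range 1.46 to 49.1). At a −log10 q of at least 3, 2 regions were specific to maxillary process, 5 to mandibular process and 6 to nose. With all lists shortened to the same number of lines, these counts were 9, 4 and 5. The balance between labels turned with that setting: maxillary process and not mandibular process then had 18 regions and the reverse 5, and maxillary process and not nose had 17 and the reverse 7. At a −log10 q of at least 3, maxillary process and not nose had 7 and the reverse 6. No share over all regions near genes was taken under these settings. The shifts thus cannot be called particular to the genes described here. A label that rests on 1 library keeps more regions by construction, and the counts then moved most: without maxillary process replicate 1 or 2, 23 or 28 regions were specific to maxillary process, without mandibular process replicate 1 or 2, 26 or 34 to mandibular process (and 11 without maxillary process replicate 2), and without nose replicate 1 or 2, 33 or 38 to nose. The counts between pairs of labels moved likewise. Maxillary process and not mandibular process gave 35 or 40 without maxillary process replicate 1 or 2 and 24 without mandibular process replicate 1, and the reverse gave 36 or 50 without mandibular process replicate 1 or 2 and 28 without maxillary process replicate 2. Maxillary process and not nose gave 39 or 36 without maxillary process replicate 1 or 2 and 23 without nose replicate 2, and the reverse gave 45 or 51 without nose replicate 1 or 2. Mandibular process and not nose gave 41 or 48 without mandibular process replicate 1 or 2 and 25 without nose replicate 2, and the reverse gave 44 or 48 without nose replicate 1 or 2 and 24 without mandibular process replicate 1.

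**Figure D2:**
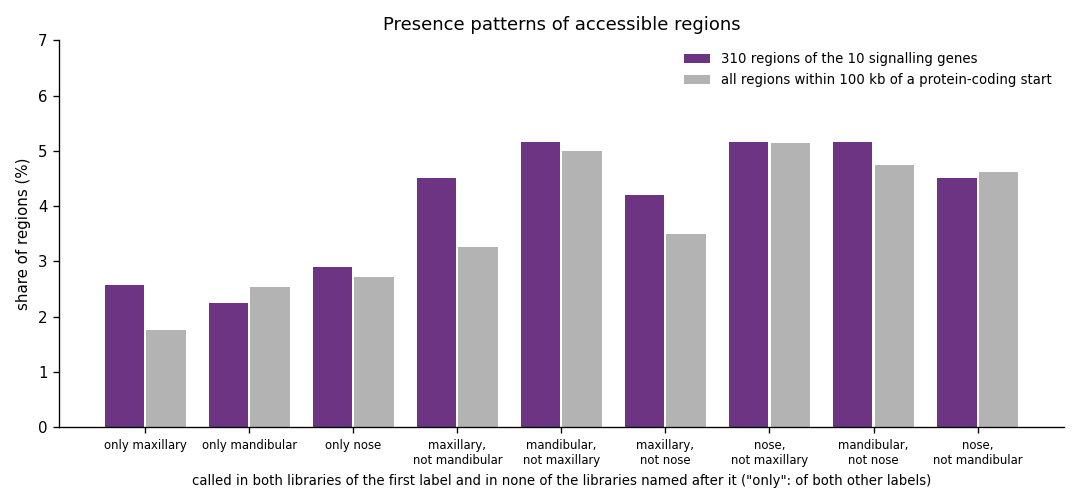
Share of regions (vertical axis, percent) with each presence pattern, for the 310 regions of the 10 genes (purple) and for all regions within 100 kb of a protein-coding start (grey). The purple bars run between 2.26% and 5.16%. They stand farthest above the grey bar for only maxillary (2.58% against 1.76%) and for maxillary, not mandibular (4.52% against 3.26%).

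Each of the 10 genes had a start-site region in all 6 libraries, as did 61.3% of the 21827 protein-coding genes. Of their 26 start-site regions, 14 were called in every library. By mean rank within the lists the strongest start-site regions were those of Tgfbr1 (−log10 q of 34.2 and 46.8 in maxillary process, 31.3 and 38.6 in mandibular process, 38.1 and 41.9 in nose) and of Tgfbr3 (20.3 and 49.1, 38.0 and 26.8, and 33.5 and 31.8 by the same labels). The −log10 q measures the evidence for a peak, grows with depth and is not an amount, and the values of the 3 labels overlapped at both genes. The weakest by mean rank was that of Tgfb1 (8.44 and 21.3 in maxillary process, 9.17 and 12.6 in mandibular process, 11.2 and 12.4 in nose), where the labels overlapped as well. Within a list these summits ranked between the top 1.48% and 3.62% at Tgfbr1, and between the top 11.3% and 25.4% at Tgfb1.

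**Figure D3:**
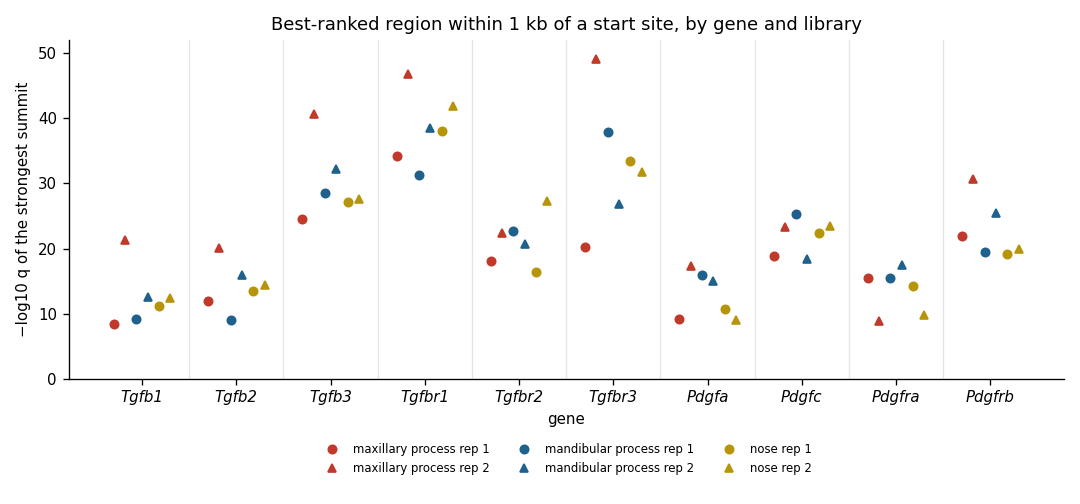
The −log10 q of the strongest summit (vertical axis) of the best-ranked region within 1 kb of a start site, for each gene and library, coloured by label. Every gene has 6 points, and the points of the 3 labels are mixed at Tgfbr1 (31.3 to 46.8) and at Tgfb1 (8.44 to 21.3).

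Among the TGF-beta ligands, Tgfb2 had the regions of 1 label and Tgfb1 and Tgfb3 had none. Tgfb1, the ligand best known from immune regulation and matrix production, had 5 regions on chromosome 7, from 2 to 4 per library. Its neighbours are close, and its territory, the stretch in which its start site is the nearest, spanned 19.0 kb. Beside the start-site region, an intronic region 2.44 kb downstream (chr7:25689212-25689562) was called in all libraries, with −log10 q of 6.75 and 8.85 in maxillary process, 7.80 and 6.99 in mandibular process, and 6.97 and 6.61 in nose, a narrow range. No region of Tgfb1 was present throughout 1 label and missing from another.

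Tgfb2, a ligand that mouse mutants tie to heart, skeleton and palate, had 41 regions on chromosome 1, of which 24 lay in its own introns and 3 in introns of the neighbour Rrp15. Maxillary process libraries called 16 and 14, mandibular process libraries 26 and 13, and nose libraries 20 and 18, so that the mandibular process libraries held both the highest and the lowest count. The best-ranked distal region (more than 1 kb from a start site) was one of those in Rrp15, 16.1 kb upstream (chr1:186721861-186722273), with −log10 q of 10.0 and 14.9 in maxillary process, 17.6 and 7.21 in mandibular process, and 11.6 and 14.0 in nose. The values of the labels overlapped there.

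At 4 of the 41 Tgfb2 regions (9.76%), a peak was called in both mandibular process libraries and in no other, and none was specific to maxillary process or nose. The best ranked was the intronic region 29.5 kb downstream of the start, with −log10 q of 5.08 and 7.46. The others, 71.2 kb and 95.3 kb downstream and 7.06 kb upstream, had −log10 q between 1.66 and 4.33. The one 95.3 kb downstream (chr1:186610288-186610444) lay beside a region called in all libraries (chr1:186609914-186610242). Whether both belong to 1 peak was not tested. As many mandibular process specific regions stood at 154 of the 18926 genes with a region (0.814%), and at 149 (3.57%) of the 4176 genes with at least 20 regions. The count fell to 1 at a −log10 q of at least 3 and to 1 with lists of equal length, and was 2 when a peak had to cover at least 50% or 200 bp of its region or the genes were taken within 50 kb. Without mandibular process replicate 2 it was 10.

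**Figure D4:**
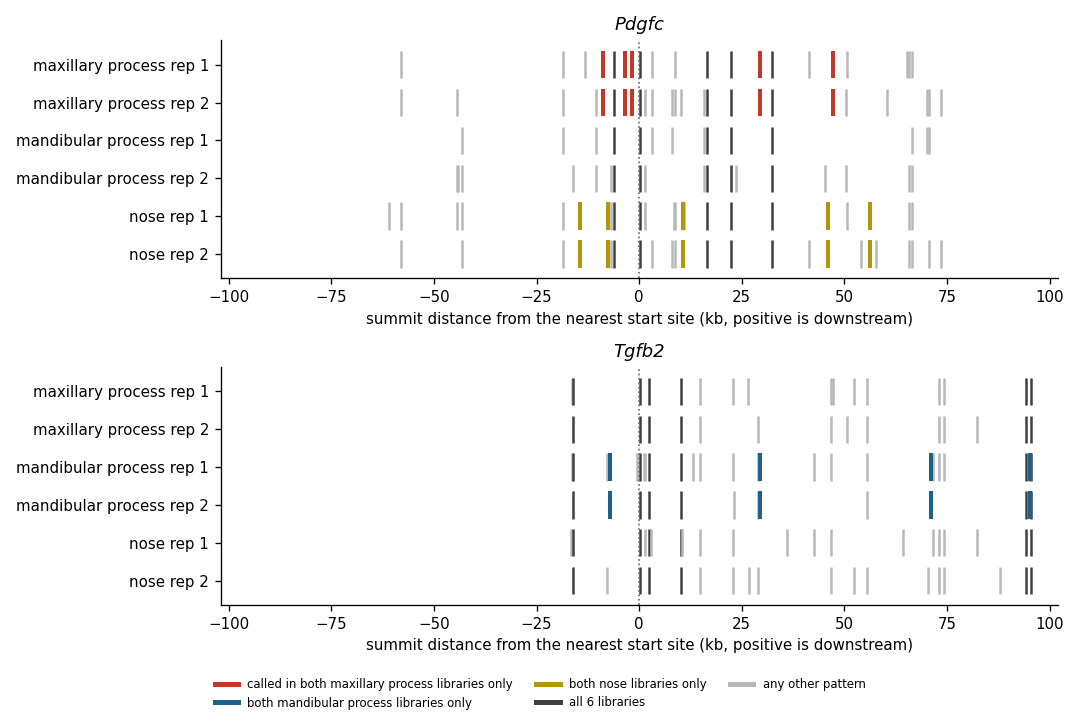
Regions of Pdgfc (above) and Tgfb2 (below) by the distance of their summit from the nearest start site (horizontal axis, kb, positive is downstream), with a row for each library, in which a mark is a called region coloured by its presence pattern. Pdgfc carries 5 marks specific to maxillary process and 5 specific to nose, and Tgfb2 carries 4 specific to mandibular process.

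Tgfb3, the ligand that the palatal shelves of the mouse need for fusion, had 24 regions on chromosome 12, and 18 of them lay in introns of the neighbour Ttll5. Libraries labelled maxillary process called 11 and 17, mandibular process 16 and 15, and nose 13 and 14. Of the 24, 9 were called in all libraries and 4 lay at the start site. The best-ranked distal region lay in Ttll5, 41.4 kb downstream (chr12:86037123-86037965), with −log10 q of 12.6 and 26.9 in maxillary process, 18.4 and 23.4 in mandibular process, and 19.1 and 15.2 in nose, values that overlapped between the labels. A further Ttll5 region, 65.2 kb downstream (chr12:86013680-86013866), was absent from both maxillary process lists and called with −log10 q of 5.90 and 2.21 in mandibular process and 2.61 and 6.27 in nose.

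Of the TGF-beta receptors, Tgfbr3 had 12, Tgfbr2 10 and Tgfbr1 3 regions called in all libraries. Tgfbr1, the type I receptor kinase, had 28 regions on chromosome 4, of which 23 were intergenic. Maxillary process libraries called 10 and 8, mandibular process 13 and 11, and nose 8 and 13. Its best-ranked distal region, 11.97 kb upstream (chr4:47340981-47341768), had −log10 q of 4.35 and 9.22 in maxillary process, 2.65 and 6.59 in mandibular process, and 2.64 and 2.81 in nose. A region 9.88 kb upstream (chr4:47343289-47343473) was specific to mandibular process at −log10 q of 6.92 and 1.64, and another 13.8 kb downstream at 1.83 and 1.80. Both values of the latter lay below 2.55, the lowest in the list of maxillary process replicate 2. Tgfbr1 also had 1 region specific to maxillary process, 38.3 kb downstream at 1.79 and 2.90, and 1 specific to nose, 7.22 kb upstream at 2.69 and 1.47.

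Tgfbr2, the type II receptor that binds the ligand, had 47 regions on chromosome 9, of which 26 lay in its own introns. The counts were even: 22 and 22 in maxillary process, 25 and 21 in mandibular process, and 24 and 23 in nose. An intronic region 36.3 kb downstream (chr9:116138559-116139099) was called in all libraries at −log10 q of 10.9 and 24.5 in maxillary process, 19.3 and 15.5 in mandibular process, and 15.3 and 12.7 in nose, and ranked highest among its distal regions. The region 37.5 kb upstream whose window is shown above (chr9:116212667-116212924) was called only in nose, at −log10 q of 4.01 and 5.29. A pair of neighbouring regions 84.1 kb and 84.8 kb upstream (chr9:116259315-116259499 and chr9:116260088-116260243) were called only in maxillary process, at 2.92 and 4.09 for the nearer and 2.01 and 4.92 for the farther. An intronic region 68.1 kb downstream (chr9:116107098-116107674) was shared by the jaw labels and absent from nose, with 2.92 and 5.79 in maxillary process and 8.28 and 3.41 in mandibular process. A region called in maxillary process and nose but not in mandibular process stood 52.5 kb downstream (chr9:116122594-116122796), at −log10 q of 4.14 and 6.72 in maxillary process and 3.08 and 1.80 in nose. The region beside it (chr9:116122969-116123520) was called in all libraries, and whether both belong to 1 peak was not tested.

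Tgfbr3, which encodes betaglycan, the co-receptor that presents ligand to the kinases, had 44 regions on chromosome 5, of which 33 were in its own introns. Libraries labelled maxillary process called 18 and 25, mandibular process 27 and 24, and nose 18 and 19. Of the 10 genes it had the most regions called in all libraries, 12 of 44. The best-ranked distal region of all 10 genes was intronic, 93.3 kb downstream (chr5:107195594-107196688), with −log10 q of 16.3 and 23.4 in maxillary process, 24.8 and 24.3 in mandibular process, and 13.2 and 19.8 in nose. On the normalized log2 fold used for the strength test below it had 3.16 and 2.71, 3.10 and 3.20, and 2.85 and 3.03 by the same labels, and mandibular process overlapped maxillary process (log2 difference for maxillary process over mandibular process −0.21, adjusted p = 0.765 in limma). The region 7.09 kb upstream (chr5:107296251-107296992) was called in both jaw labels and in neither nose library, with −log10 q of 2.92 and 3.29 in maxillary process and 16.4 and 9.33 in mandibular process, and at 742 bp was wider than most. Tgfbr3 had 1 region specific to mandibular process, 10.2 kb downstream at 1.85 and 3.66, 1 specific to nose, 81.2 kb downstream at 2.24 and 1.67, and 0 specific to maxillary process. Both values of the nose region lay below 2.55, the lowest in the list of maxillary process replicate 2.

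Among the PDGF ligands, Pdgfc held more regions of 1 label than any other of the 10 genes, and Pdgfa held none. Pdgfa, a ligand of the alpha receptor, had 27 regions on chromosome 5, of which 15 were intergenic and 6 lay in introns of Prkar1b. The libraries labelled maxillary process called 13 and 10, mandibular process 13 and 12, and nose 12 and 14. The best-ranked distal region lay in Prkar1b, 36.8 kb upstream (chr5:139033620-139034601), at −log10 q of 6.72 and 7.67 in maxillary process, 6.69 and 5.23 in mandibular process, and 8.14 and 9.86 in nose. Its normalized log2 fold, the scale of the strength test below, was 2.80 and 2.28 in maxillary process, 2.43 and 2.31 in mandibular process, and 2.65 and 2.67 in nose, and maxillary process overlapped nose (log2 difference −0.12, adjusted p = 0.916 in limma).

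Pdgfc, a ligand of the alpha receptor that the mouse palate needs together with PDGF-A, had 47 regions on chromosome 3, of which 29 lay in its own introns and 16 were intergenic. Maxillary process libraries called 20 and 25, mandibular process libraries 14 and 18, and nose libraries 23 and 24. Both mandibular process counts were below the other 4, an arrangement that 107 of the 4176 genes with at least 20 regions shared (2.56%). A region 6.13 kb upstream (chr3:81029982-81030621) nonetheless ranked best among its distal regions and reached its highest value in mandibular process: −log10 q was 7.74 and 17.0 in maxillary process, 25.7 and 14.5 in mandibular process, and 9.57 and 6.45 in nose. An intronic region 22.4 kb downstream (chr3:81058219-81059215) was more even, at 9.68 and 13.1 in maxillary process, 9.35 and 10.1 in mandibular process, and 12.7 and 14.6 in nose.

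Of the 47 Pdgfc regions, 5 were specific to maxillary process (10.6%), 0 to mandibular process and 5 to nose (10.6%). The maxillary process regions were the intronic one 47.3 kb downstream whose window is shown above (chr3:81083587-81083882, −log10 q of 2.74 and 10.3), another 29.4 kb downstream (2.92 and 4.09), and 3 upstream of the gene at 1.84 kb (2.43 and 4.39), 3.58 kb (2.39 and 2.80) and 8.86 kb (1.78 and 2.71). The nose regions were the upstream ones 14.35 kb (chr3:81021764-81022154, 3.09 and 4.36) and 7.67 kb from the start (chr3:81028690-81028893, 1.40 and 12.1), and 3 intronic ones at 10.8 kb (3.09 and 2.63), 46.1 kb (1.46 and 1.85) and 56.4 kb downstream (2.24 and 1.85). Regions of both kinds thus stood on both sides of the start site. The region 7.67 kb upstream rested on 1 library, since its value in nose replicate 1 lay close to that list's lowest. At the nose regions 46.1 kb and 56.4 kb downstream, every value lay below 2.55, the lowest in the list of maxillary process replicate 2. Peaks with such values could not stand in that list.

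As many maxillary process specific regions stood at 27 of 18926 genes (0.143%) and 25 of the 4176 with at least 20 regions (0.599%), as many nose specific ones at 99 genes (0.523% and 2.37%), and at least 5 of each at 7 genes. At a −log10 q of at least 3, Pdgfc had 0 regions specific to maxillary process and 3 to nose, and with lists of equal length 3 and 3. The counts were 8 for maxillary process without its replicate 2 and 9 for nose without its replicate 2. A region 43.2 kb upstream (chr3:80993025-80993429) was called outside maxillary process only, at 4.33 and 4.30 in mandibular process and 7.04 and 1.85 in nose.

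Of the PDGF receptors, Pdgfra had 1 region specific to a label and Pdgfrb had 0. Pdgfra, which binds the A and C ligands and is carried by facial mesenchyme, had 32 regions on chromosome 5, and 7 of them lay within 1 kb of one of its 4 annotated start sites. Libraries labelled maxillary process called 18 and 16, mandibular process 19 and 16, and nose 20 and 16, and 9 regions were called in all. The best-ranked start-site region, in the 5′ untranslated part, had −log10 q of 15.5 and 8.88 in maxillary process, 15.5 and 17.4 in mandibular process, and 14.2 and 9.73 in nose. A further start-site region called in all libraries (chr5:75153345-75153608), also in a 5′ untranslated part, had 6.96 and 7.72 in maxillary process, 5.17 and 2.45 in mandibular process, and 1.81 and 3.38 in nose. Both maxillary process values were above the other 4 there, and in limma its log2 difference was 0.39 (SE 0.15) for maxillary process over mandibular process, with an adjusted p of 0.216, and 0.44 (SE 0.15) for maxillary process over nose, with an adjusted p of 0.138. The region 145 bp upstream of the first annotated start (chr5:75152072-75152205) was absent from both maxillary process lists and called at 2.52 and 1.62 in mandibular process and 2.12 and 1.38 in nose. Each of these values lay below 2.55, the lowest in the list of maxillary process replicate 2. A peak with such a −log10 q could not stand in that list. The region 891 bp upstream of another start (chr5:75154918-75155127) was absent from both nose lists and called at 2.01 and 4.97 in maxillary process and 3.06 and 1.69 in mandibular process. The best-ranked distal region, 1.43 kb upstream (chr5:75150649-75150963), had 10.9 and 9.92, 7.13 and 17.3, and 8.90 and 11.3 by the same labels, so that mandibular process held the lowest and the highest value. Pdgfra had 1 region specific to nose, 7.17 kb downstream at 2.24 and 1.85, both also below the lowest value of maxillary process replicate 2. A region 9.14 kb upstream (chr5:75143095-75143202) was called in both maxillary process libraries at 4.96 and 4.09, in neither mandibular process library, and in nose replicate 2 at 2.63. It lay beside a region called in all libraries (chr5:75143260-75143489), which had 4.33 and 7.21 in mandibular process. Whether both belong to 1 peak was not tested.

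Pdgfrb, the receptor of pericytes and vascular smooth muscle that facial mesenchyme carries as well, had 15 regions on chromosome 18, 11 of them in its own introns, and 7 were called in all libraries. Libraries labelled maxillary process called 8 and 13, mandibular process 10 and 10, and nose 11 and 10. With a territory of 34.7 kb it held 43.2 regions per 100 kb, a density above that of 98.5% of genes with a territory of at least 10 kb. An intronic region 9.36 kb downstream (chr18:61054426-61054767) ranked best among the distal ones, at −log10 q of 3.62 and 9.18 in maxillary process, 9.07 and 13.7 in mandibular process, and 7.85 and 7.71 in nose. The region 935 bp downstream of the start (chr18:61046086-61046184) was absent from both maxillary process lists and called at 2.80 and 2.16 in mandibular process and 3.09 and 1.90 in nose. No region of Pdgfrb was specific to a label, and the start sites of the pericyte and smooth muscle markers were open in all libraries too.

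Peak strength was compared at the 69 regions called in every library, on the log2 of the deposited fold over local background after quantile normalization, which sets side by side the order of strength within libraries and not amounts. Across all 69940 regions called in every library, limma with Benjamini-Hochberg adjustment called 640 higher (0.915%) and 619 lower (0.885%) in maxillary process over mandibular process, 858 higher (1.23%) and 605 lower (0.865%) in maxillary process over nose, and 1319 higher (1.89%) and 1023 lower (1.46%) in mandibular process over nose. Of the 69 regions, the same test called 1 higher and 0 lower in maxillary process over mandibular process (4 and 3 at an unadjusted p under 0.05), 0 higher and 1 lower in maxillary process over nose (3 and 2), and 1 higher and 1 lower in mandibular process over nose (5 and 5). The shares over all 69940 regions hold for the adjusted p only. None was taken at an unadjusted p under 0.05, so that the unadjusted counts have no background. The median log2 differences of the 69 regions were −0.05, −0.04 and 0.01 for the 3 comparisons, beside 0.00, −0.01 and −0.01 over all regions. The called members came to 3 regions, 1 each at Tgfb3, Tgfbr3 and Pdgfa. The comparisons share libraries, so that a region called in more than 1 of them is not called independently.

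The Tgfb3 region, in an intron of Ttll5 and 78.1 kb downstream of the Tgfb3 start (chr12:86000493-86001725), was weaker in mandibular process than in both other labels. Its −log10 q was 9.70 and 24.1 in maxillary process, 5.26 and 2.58 in mandibular process, and 12.2 and 19.8 in nose. Its normalized log2 fold was 3.03 and 3.33 in maxillary process, 2.37 and 1.94 in mandibular process, and 3.06 and 3.34 in nose, and the mandibular process values did not overlap the others. The log2 difference was 1.03 (SE 0.24) for maxillary process over mandibular process, with an adjusted p of 0.0162 in limma, and −1.05 (SE 0.24) for mandibular process over nose, with an adjusted p of 0.00955. For maxillary process over nose it was −0.02 (adjusted p = 0.988 in limma). The first call was lost in limma without maxillary process replicate 1 (difference 1.18) or replicate 2 (0.88) and without mandibular process replicate 2 (0.82). The call against nose was lost without mandibular process replicate 2 (−0.84) and without nose replicate 2 (−0.91). A fit with 1 library left in a label called fewer regions over all, so that a lost call is not particular to this region.

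The Tgfbr3 region, intronic and 6.60 kb downstream (chr5:107282864-107283275), was stronger in mandibular process than in nose. Its −log10 q was 6.06 and 8.61 in maxillary process, 10.9 and 6.42 in mandibular process, and 1.46 and 1.85 in nose, where it lay near the lower end of the lists. Its normalized log2 fold was 2.74 and 2.51 in maxillary process, 2.85 and 2.50 in mandibular process, and 1.73 and 1.77 in nose, so that both jaw labels were above both nose libraries. In limma the log2 difference was 0.92 (SE 0.25) for mandibular process over nose, with an adjusted p of 0.0351, and 0.87 (SE 0.25) for maxillary process over nose, which missed the threshold at an adjusted p of 0.0616. Leaving out any 1 of the 6 libraries ended the limma call, with a difference between 0.75 and 1.10. Such fits called fewer regions over all as well.

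The Pdgfa region, in an intron of Prkar1b 37.7 kb upstream and beside the best-ranked distal region of Pdgfa, was weaker in maxillary process than in nose. Its −log10 q was 1.83 and 3.49 in maxillary process, 3.79 and 8.50 in mandibular process, and 12.1 and 7.86 in nose. Its normalized log2 fold was 1.77 and 1.78 in maxillary process, 2.06 and 2.61 in mandibular process, and 2.96 and 2.46 in nose, and mandibular process overlapped nose. The log2 difference for maxillary process over nose was −0.94 (SE 0.26), with an adjusted p of 0.0493 in limma, just inside the threshold. The limma call was lost without any 1 of the 6 libraries, with a difference between −1.19 and −0.69. Such fits called fewer regions over all as well.

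**Figure D5:**
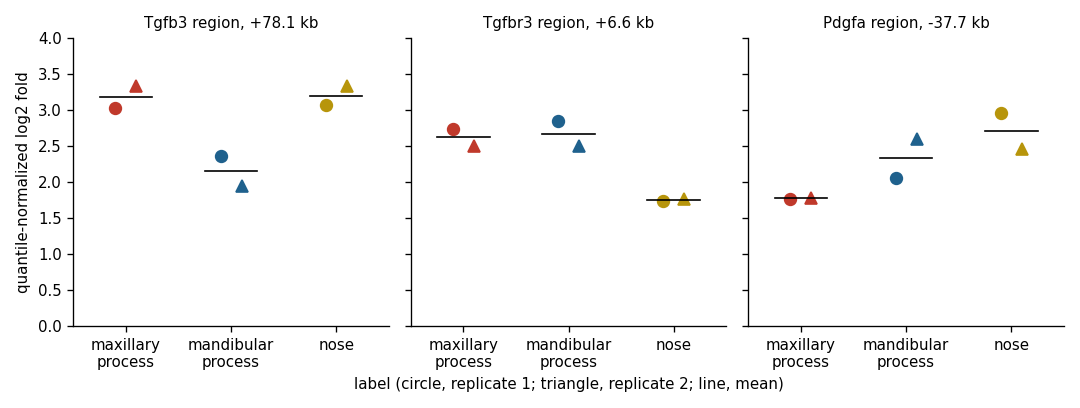
Quantile-normalized log2 fold over local background (vertical axis) of the 3 regions past the limma threshold, by label on the horizontal axis, with circles for replicate 1, triangles for replicate 2 and a line at the mean. At the Tgfb3 region both mandibular process points (2.37 and 1.94) lie below the other 4, and at the Tgfbr3 region both nose points (1.73 and 1.77) do.

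By position, 184 of the 310 regions were intronic (59.4%), 101 intergenic (32.6%), 9 in a 5′ untranslated part, 8 in noncoding exons, 6 in coding exons and 2 in a 3′ untranslated part. Start-site regions made up 26 of the 310 (8.39%), against 12.9% of all regions near genes. Of the 24 regions specific to a label, 0 lay within 1 kb of a start site, where 3.28% of all maxillary process specific regions near genes lay, 5.55% of the mandibular process ones and 5.06% of the nose ones. The median width was 513 bp for the 69 regions called in all libraries and 90.0 bp for the 124 called in 1 library, beside 533 bp and 90.0 bp over all regions near genes. In the 201 bp windows, the SOX letters stood in 28.4% of the 310 regions and 23.9% of all regions near genes, the SMAD box in 18.4% and 20.01%, the E-box letters in 43.5% and 42.9%, and GGGCGG, the SP/KLF letters, in 7.74% and 10.3%.

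Of 23 further genes of the same pathways, 21 had a start-site region in all 6 libraries. The exceptions were Eng, an endothelial co-receptor, with one in 2 libraries, and Pdgfb, the ligand that recruits pericytes, with one in 3. The 23 genes had 610 regions, of which 144 (23.6%) were called in all libraries, against 21.7% of all regions near genes. Specific to maxillary process were 8 (1.31%, background 1.76%), to mandibular process 14 (2.3%, background 2.54%) and to nose 10 (1.64%, background 2.73%). Each of these shares specific to a label was below that of all regions near genes. Ltbp1, which binds latent TGF-beta to matrix, had 128 regions, with 5 specific to maxillary process, 1 to mandibular process and 3 to nose. Smad7, an inhibitor of the pathway, had 65 regions with 0, 3 and 1 for the same labels, and Pdgfd, a further PDGF ligand, had 14 regions, with 3 specific to nose and 0 to either jaw label. Of the 144 regions tested by limma, 4 passed the threshold: 1 was lower in maxillary process than in nose (at Smad7), and 2 were higher (at Inhbb, an activin subunit, and at Pdgfrl) and 1 lower (at Ltbp4) in mandibular process than in nose. Over all regions tested, the shares called were 0.865% lower in maxillary process over nose, and 1.89% higher and 1.46% lower in mandibular process over nose.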

How the data were processed

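Bulk ATAC-seq of E11.5 face tissue was available as 6 lists of peaks, 1 per library. Bowtie2, SAMtools and the mm10 build are listed in the submitters' processing notes, and the peak caller and versions are not given in the sources used here. Per the deposited lists, each line is a summit with a score, a fold over local background (a ratio), a −log10 p and a −log10 q, all computed by the authors for each library alone. The score and the −log10 p were checked but not compared between libraries. No reads were used, and the depth per library is unknown.

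Peaks overlapping by at least 1 bp were merged, and each region was given to the nearest protein-coding start site of the GENCODE M21 basic annotation on GRCm38, up to 100 kb from its strongest summit. Start-site regions lay within 1 kb. Sequence windows of 201 bp came from the GRCm38 genome. The windows of the Tgfb2 and Pdgfa regions are not reported here.

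Libraries were grouped by label. Counts per library were tested by exact permutation. Regions called in all 6 libraries were fitted across the whole genome with limma 3.58.1 (R 4.3.3) on log2 of the deposited fold, after quantile normalization and without a block, with all labels in 1 fit, a threshold of 0.05 and Benjamini-Hochberg adjustment over 69940 regions. No count model was used. Python 3.11.15, pandas 2.3.3 and pysam 0.24.0 were used for the rest, and the fit was tested on simulated data. Named regions were, for each gene, the best-ranked start-site and distal regions called in all libraries, regions specific to a label, the best ranked of each contrast, and all past the limma threshold, with further ones named after their values were seen. The members and lists were chosen with earlier results of these data known. Alternatives were a −log10 q of at least 3, lists of equal length (219779 lines), a minimum cover of the region, a distance of 50 kb, other scalings, a filter on low values, a replicate block, and leaving out each library.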

Additional observations from a re-analysis of the deposited data

How the results depend on the processing

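With a −log10 q of at least 3, 198 regions remained in the set, of which 2 were specific to maxillary process, 5 to mandibular process and 6 to nose, and the counts were 5 for maxillary process and not mandibular process, 6 for the reverse, 7 for maxillary process and not nose, 6 for the reverse, 9 for mandibular process and not nose, and 10 for the reverse. Pdgfc then had 0 regions specific to maxillary process and 3 to nose, and Tgfb2 had 1 specific to mandibular process. With lists of equal length, 9 regions were specific to maxillary process, 4 to mandibular process and 5 to nose, with 18 for maxillary process and not mandibular process and 5 for the reverse, 17 for maxillary process and not nose and 7 for the reverse, and 10 for mandibular process and not nose and 12 for the reverse, and Pdgfc had 3 and 3 and Tgfb2 1. Tgfb2 had 2 under the minimum cover. Within 50 kb, the counts were 8 for maxillary process and not mandibular process, 10 for the reverse, 9 for nose and not mandibular process, and 2 for Tgfb2. Under each of the deposited −log10 q in place of fold, median centring and the replicate block, limma called 1 region higher in maxillary process over nose and 2 lower in mandibular process over nose. The filter on low values, which removed the Tgfbr3 and Pdgfa regions, left 0 lower in maxillary process over nose and 0 higher in mandibular process over nose (limma, where 2 and 5 had an unadjusted p under 0.05 before the filter). The balance of maxillary process against mandibular process and against nose thus turned with lists of equal length, and that against nose also at a −log10 q of at least 3. That of mandibular process against nose turned under both settings. Under the minimum cover, maxillary process and not mandibular process had 15 regions and the reverse 12, which turned that balance as well. The log2 differences of the 3 named limma regions kept their sign under every alternative in which they were fitted. The cause of these shifts was not tested, and with no share over all regions near genes beside them they cannot be called particular to the 10 genes.

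Leaving out 1 library at a time gave 290 to 306 regions in all and 70 to 77 called in all remaining libraries. Specific regions numbered 8 to 28 for maxillary process, 9 to 34 for mandibular process and 9 to 38 for nose. The counts were 14 to 40 for maxillary process and not mandibular process, 16 to 50 for the reverse, 13 to 39 for maxillary process and not nose, 16 to 51 for the reverse, 16 to 48 for mandibular process and not nose, and 14 to 48 for the reverse. Pdgfc had 5 to 8 specific to maxillary process and 5 to 9 to nose, and Tgfb2 4 to 10. The limma calls were 0 to 1 higher and 0 to 0 lower in maxillary process over mandibular process, 0 to 0 and 0 to 0 in maxillary process over nose, and 0 to 0 higher and 0 to 1 lower in mandibular process over nose. A label left with 1 library is assumed to vary like the others, and each such fit called fewer regions over all, so that a lost call is not particular to a region. The labels do not tell whether same-numbered libraries were paired. The correlations of same-numbered deviations were 0.00702, 0.0646 and 0.0311, which cannot tell whether such libraries shared a source. With the block, limma called 962 regions higher and 952 lower in maxillary process over mandibular process, against 640 and 619 without it. The calls rose in the other comparisons as well, and the block is a check of the fit only. Depth is unknown, so that absence from a list limits what could be detected there.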
